A study of Mus musculus with 8 samples.

Results

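Nrn1, Sncb, Espn and Kctd16 are 4 protein-coding genes best known from neurons and sensory cells, and all 4 were far higher in mouse hearts carrying a Bmp2 gain-of-function allele. They were chosen from 13637 Ensembl genes because of that difference, so their levels in the compared groups are given as a description, without a test. RNA-seq was done on embryonic day 9.5 hearts of the genotype Bmp2GOF;Nkx2.5-Cre (GOF, 4 samples) and of wild-type embryos (WT, 4 samples). The GOF hearts combined a gain-of-function allele of Bmp2, a BMP ligand gene, with a Cre driven from Nkx2-5, a cardiac transcription factor gene. That Cre acts in cardiac progenitors and their descendants, so a whole heart can hold cells with and without recombination. The labels give no further allele for WT and do not say whether a sample was 1 embryo, a pool or part of a litter. The p-values below therefore reflect how these samples vary among themselves, possibly for technical reasons alone.

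The proteins act in different places. Nrn1 encodes neuritin, a small protein held to the cell surface by a lipid anchor, which promotes neurite growth and is induced by neuronal activity. Sncb encodes beta-synuclein, a small presynaptic protein. Espn encodes espin, which ties actin filaments into the parallel bundles of hair cell stereocilia and is also found in some neurons. Kctd16 encodes an auxiliary subunit of the GABA-B receptor, a receptor for the inhibitory transmitter GABA, and belongs to a small group of KCTD proteins with that role. The heart at this stage consists mainly of cardiomyocytes and an endocardial lining, while neurons reach it later from the neural crest.

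The labelled tissue was clear in both groups. Summed over Myh6, Myh7, Tnnt2, Actc1 and Nkx2-5, cardiomyocyte markers stood at 25900 to 31200 normalized reads in GOF samples and 24100 to 27800 in WT samples. Endocardial markers summed to 443 to 558 in GOF samples and 477 to 512 in WT samples, and red cell markers to 1430 to 8210 in GOF samples and 1410 to 4060 in WT samples. A normalized read is the unit of the deposited table, whose columns sum to between 984298 and 1020939. The reads implied by the values summed to between 13182009 and 17927674 per sample in GOF and between 12287069 and 16697480 in WT. Bmp2 itself averaged 99.1 ± 7.21 normalized reads in GOF hearts and 56.3 ± 5.46 in WT hearts (SD, n = 4 each). GOF sample 1 stood apart from the other GOF samples on the second principal component, which held 7.98% of the variance. Without that sample the log2 changes of the 4 genes were 4.10 for Nrn1, 4.09 for Sncb, 3.78 for Espn and 1.77 for Kctd16, each within 0.05 of the value with it.

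The DNA around the starts of Sncb and Espn is shown so that the letters of the promoters of these members can be read beside their levels. Windows from RefSeq (GRCm38.p6), 250 bases before to 50 after a gene's start, were used for 2 of the 4 members, with 3 windows for Espn. The most upstream Espn window is printed. Both genes lie on the minus strand, and the windows are chr13:54766546-54766845 for Sncb and chr4:152152340-152152639 for Espn. Capitals mark matches on either strand to the hypoxia response element cores ACGTG and GCGTG and to the short cAMP response element site TGACG.
Sncb: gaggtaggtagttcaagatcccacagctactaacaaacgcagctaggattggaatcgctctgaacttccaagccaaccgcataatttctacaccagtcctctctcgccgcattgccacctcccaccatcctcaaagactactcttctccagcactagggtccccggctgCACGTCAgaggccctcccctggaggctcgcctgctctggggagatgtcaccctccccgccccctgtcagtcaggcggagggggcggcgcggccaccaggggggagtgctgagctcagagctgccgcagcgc
Espn: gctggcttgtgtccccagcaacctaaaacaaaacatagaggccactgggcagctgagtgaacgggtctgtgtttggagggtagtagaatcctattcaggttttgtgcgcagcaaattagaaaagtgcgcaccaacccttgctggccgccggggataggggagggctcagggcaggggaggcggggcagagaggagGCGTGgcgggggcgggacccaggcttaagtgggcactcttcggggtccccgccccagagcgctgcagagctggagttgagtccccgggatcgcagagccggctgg
The Sncb window held 1 ACGTG and 1 TGACG, both on the strand opposite to the gene and overlapping each other in the capital stretch. The Espn window held 1 GCGTG, and a further Espn window held another. Such matches are common. Of 32817 mouse windows of the same length, 19.6% held ACGTG, 32.4% held GCGTG and 20.8% held TGACG on either strand. The amino acid response element core TGATGNAA (in 3.97% of windows) and the GC-rich Smad element GGCGCC (in 11.9%) had no match in the Sncb window or in any of the 3 Espn windows. The Smad box CAGAC, held by 49.6% of windows, had 1 match in the printed Espn window, 3 in another and 0 in the Sncb window. A match is a run of letters and not a site shown to be used, and no match says only that the letters are missing from this window.

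Nrn1 (ENSMUSG00000039114) lies on the minus strand of chromosome 13 from 36725361 to 36735131 (GRCm38, GENCODE M21). In GOF samples 1 to 4 it had 60.4, 49.7, 59.3 and 56.4 normalized reads, against 2.10, 1.72, 2.30 and 3.05 in WT samples 1 to 4. The lowest GOF sample was 16.3 times the highest WT sample. Summed over the samples, the neuritin gene had 3354 reads in GOF and 131 reads in WT, with reads in every WT sample. In whole hearts, more cells of a type and more RNA per cell cannot be told apart. The log2 change of Nrn1 was 4.14 on the scale of log2(normalized reads + 1), rank 4 among all genes by size of rise. The last 920 bases of the gene overlap Fars2, a mitochondrial tRNA synthetase gene on the opposite strand, and the antisense gene Gm30177 lies inside it. The sources do not say whether reads were counted by strand, so reads from these genes cannot be told apart with certainty. Fars2 averaged 14.3 ± 1.34 normalized reads in GOF hearts and 17.9 ± 1.58 in WT hearts, and it fell by 0.31 on the log2 scale (limma adjusted p = 0.00609) while Nrn1 was higher.

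Sncb (ENSMUSG00000034891) lies on the same chromosome, 18.0 Mb away, from 54758860 to 54766595. It had 19.7, 19.5, 24.99 and 17.3 normalized reads in GOF samples 1 to 4, against 0.266, 0.157, 0.444 and 0.184 in WT samples 1 to 4. In reads this was 289, 343, 324 and 251 in GOF, against 4, 2, 5 and 2 in WT. The beta-synuclein gene was therefore near the limit of detection in WT, where 3 reads in a sample correspond to 0.177 to 0.242 normalized reads. The ratio of the summed reads, scaled by library, was 91.3 with a 95% interval of 53.2 to 172 (exact Clopper-Pearson, counting error only). Its log2 change was 4.07, smaller than this ratio because the added 1 shrinks changes of genes that are low.

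Espn (ENSMUSG00000028943) lies on the minus strand of chromosome 4 from 152120331 to 152152371 and has 15 annotated protein-coding transcripts, which the gene-level values do not separate. It had 38.5, 30.9, 39.4 and 34.1 normalized reads in GOF samples 1 to 4, against 2.34, 1.29, 0.848 and 2.24 in WT samples 1 to 4. WT was the more uneven group for the espin gene, with 10 to 39 reads per sample, and the lowest GOF sample was still 13.2 times the highest WT sample. Its log2 change was 3.81, rank 8 by size of rise.

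Kctd16 (ENSMUSG00000051401) lies on the plus strand of chromosome 18 from 40256962 to 40531630, by far the longest of the 4 genes at 274.7 kb. The gene AC164106.1 overlaps it on the same strand over 5583 bases, and the antisense genes AC098707.1 and AC132357.1 overlap it on the other strand. None of these 3 was analysed here, and reads from them cannot be told apart from those of Kctd16 with certainty. It had 2.82, 2.76, 3.04 and 1.89 normalized reads in GOF samples 1 to 4, from 41, 48, 39 and 27 reads. The 4 WT samples had 0 reads. A count of 0 allows up to 3 reads over the WT group, or 0.051 normalized reads. The GOF value, taken without error, was 50.8 times that limit. This figure covers counting error in WT alone, and not the variation between samples. Besides Kctd16, the processed pseudogene Gm10052 was the only gene of the table with 0 reads in all WT samples. The log2 change of Kctd16 was 1.8 with the added 1 and rank 114, a value set largely by that added 1. Every gene of the table reached 1 normalized read in 4 or more samples, so Kctd16 and Sncb, both under 1 in all WT samples, are in it through GOF alone and had to differ. Espn reached 1 in 3 of the 4 WT samples and also needed GOF samples to enter, while Nrn1 reached 1 in all 8. There were 92 genes at 1 or more in all 4 GOF samples and in no WT sample, and 46 of the opposite kind.

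**Figure D1:**
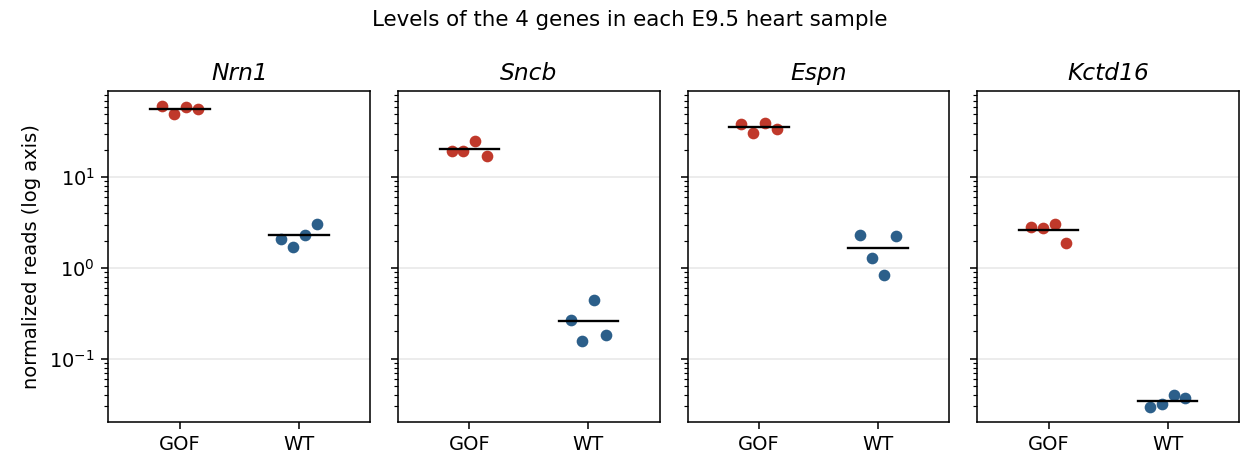
Normalized reads (log axis) of Nrn1, Sncb, Espn and Kctd16 in each of 4 GOF and 4 WT samples, with 1 point per sample and a line at the mean. In each panel the GOF samples lie above the WT samples, and the WT points of Kctd16 stand for 0 reads plus the offset in the deposited values.

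The members differed in level more than in spread. Per kb of the longest annotated coding transcript, the GOF means were 31.7 normalized reads for Nrn1, 15.1 for Sncb, 7.74 for Espn and 0.949 for Kctd16, and no pair of genes overlapped across the GOF samples on this scale. In WT the order was Nrn1 at 1.29, Espn at 0.363 and Sncb at 0.194 normalized reads per kb, and there the samples of Espn and Sncb overlapped. Among all genes with a transcript length, Nrn1 stood above 82.9% of genes per kb in GOF and above 13.4% in WT. Sncb stood above 65.3% in GOF and above 1.16% in WT, and Espn above 45.4% in GOF and above 3.21% in WT. Without the division by length Espn averaged 35.7 normalized reads in GOF and Sncb 20.4, so their order in GOF rests on the transcript lengths used. Kctd16 remained a low gene in GOF, above 8.99% of genes. The standard deviation over GOF samples was 8.49% of the mean for Nrn1, 11.01% for Espn, 16.1% for Sncb and 19.3% for Kctd16. GOF sample 3 was highest for Sncb, Espn and Kctd16. GOF sample 2 was lowest for Nrn1 and Espn, and GOF sample 4 for Sncb and Kctd16.

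**Figure D2:**
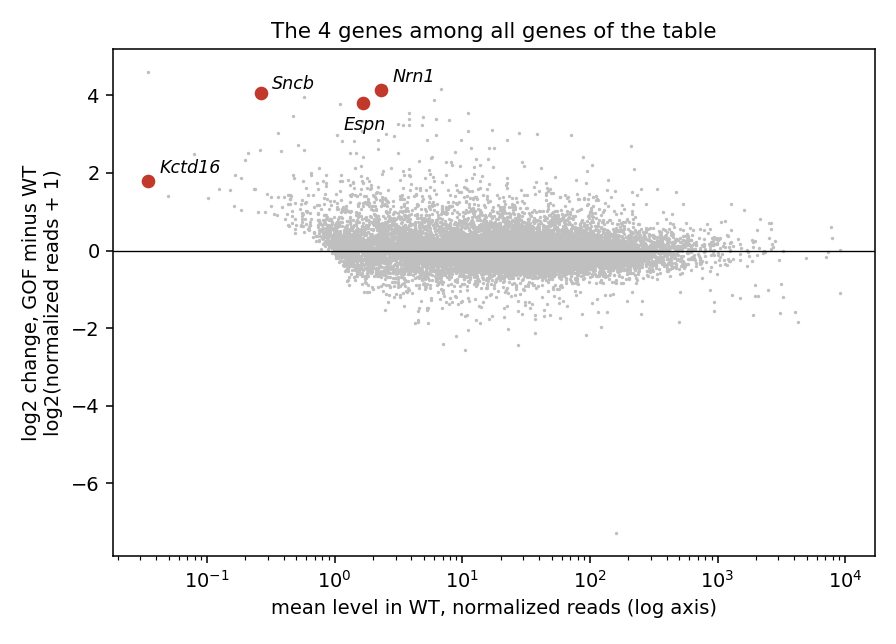
Log2 change of log2(normalized reads + 1), GOF minus WT, against the mean WT level (log axis) for all 13637 genes in grey, with the 4 genes in red. Nrn1, Sncb and Espn sit at the top of the plot at 3.81 to 4.14, and Kctd16 lies at the left edge at 1.8.

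Expression differed between GOF and WT for 56.3% of all genes tested (28.2% higher, 28.2% lower, limma adjusted p under 0.05), and each count below is read against that background. Every GOF sample lay above every WT sample for 25.6% of genes, as for all 4 members, which were chosen for it, and below every WT sample for 25.3%. The even split depends on the scaling, since 43.3% of the called genes were higher with quantile normalization and 40.2% with equal totals without mitochondrial genes. In the table, 407 genes reached the minimum of 1 normalized read in 4 samples through GOF alone and 301 through WT alone. Where such a gene is counted or named below, the direction of its difference was partly fixed by that minimum. The closest relatives and known partners of the members went both ways. Of 11 such genes 6 were measured, and 2 rose, 2 fell and 2 did not pass. Sncaip averaged 8.32 ± 1.22 normalized reads in GOF hearts and 8.84 ± 1.23 in WT hearts (SD, n = 4 each) and did not pass (limma adjusted p = 0.593).

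The GABA-B receptor group moved in both directions. Kctd12, which encodes the auxiliary subunit related to Kctd16, had 35.7, 40.6, 34.8 and 41.8 normalized reads in GOF samples 1 to 4, against 114, 119, 117 and 114 in WT samples 1 to 4. It fell by 1.58 ± 0.06 on the log2 scale (SE, limma adjusted p = 7.43e-12), so it was lower in the samples in which Kctd16 was detected. Kctd12b, another relative, rose by 0.44 ± 0.14 (SE, limma adjusted p = 0.0124) with overlapping groups, at 7.38 ± 1.11 in GOF hearts and 5.19 ± 1.05 in WT hearts (SD, n = 4 each). Gabbr1, the GABA-binding receptor subunit, rose to 38.1 ± 1.31 in GOF against 28.8 ± 1.31 in WT (log2 change 0.39, limma adjusted p = 2.11e-05). The espin-binding protein gene Baiap2 averaged 7.74 ± 0.962 in GOF hearts and 9.64 ± 1.35 in WT hearts and fell by 0.28 (limma adjusted p = 0.0432). That call was lost in the fit with the replicate number as a block, without the trended robust prior, and when GOF 2, GOF 4, WT 3 or WT 4 was left out (limma adjusted p 0.0525 to 0.147, and 0.012 to 0.147 over all alternatives). The other listed relatives, among them Gabbr2, Kctd8, Sncg and Nrn1l, were not analysed here.

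**Figure D3:**
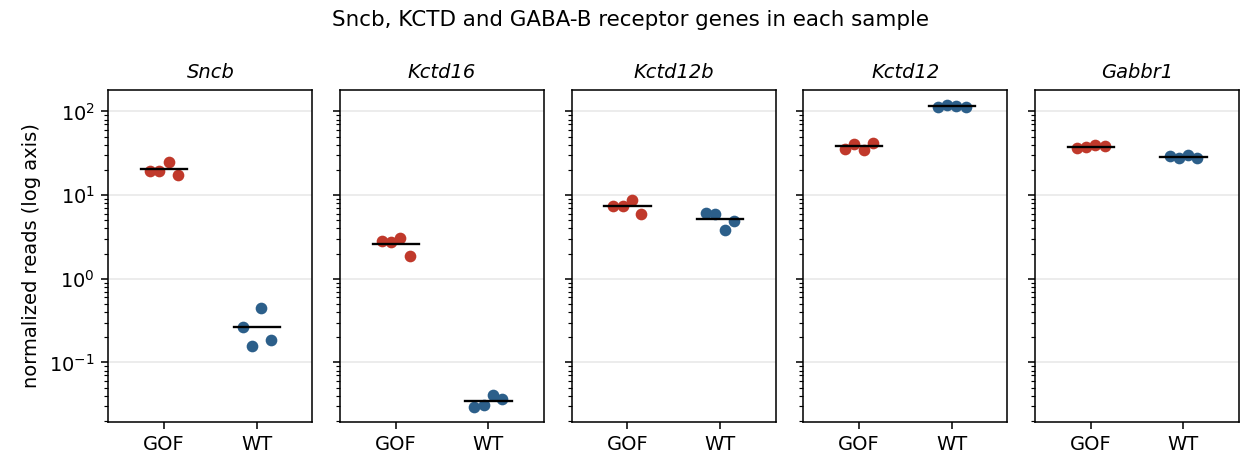
Normalized reads (log axis) per sample of Sncb, of Kctd16, Kctd12b and Kctd12, and of Gabbr1, in 4 GOF and 4 WT samples, with a line at the mean. Sncb and Kctd16 are higher in GOF without overlap, and Kctd12 is lower in GOF, at about 38.3 against 116 in WT.

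A short list of neuron markers was low in both groups and not higher in GOF. Of 9 neuron markers 7 were measured, and summed they stood at 30.8 to 32.2 normalized reads in GOF samples and 36.1 to 39.9 in WT samples. Of these 7 markers 4 fell and 0 rose in the limma test, also at an unadjusted p under 0.05. Over all genes 56.3% were called, 28.2% as lower and 28.2% as higher, and this list is small. Stmn2, a microtubule regulator of growing axons, averaged 1.2 ± 0.337 in GOF hearts and 2.90 ± 0.651 in WT hearts (SD, n = 4 each) and fell by 0.82 (limma adjusted p = 0.000445). Stmn2, Dcx and Syt1, all among the 4 lower markers, reached the table's minimum through WT alone. Tubb3, the neuronal beta-tubulin gene, averaged 15.5 ± 0.726 in GOF hearts and 15.7 ± 2.44 in WT hearts and did not pass (limma adjusted p = 0.921).

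In a broader list of 22 pan-neuronal genes, 17 were measured, and 4 rose while 6 fell and 7 did not pass. Their median log2 change was -0.07, beside -0.00198 over all genes. Most of the measured markers of the short list are counted again here, and the 4 genes that rose are not among those markers. Summed, the 17 genes stood at 173 to 190 normalized reads in GOF samples and 170 to 177 in WT samples. Mapt, which encodes the axonal microtubule protein tau, rose to 3.83 ± 0.259 normalized reads in GOF against 0.980 ± 0.248 in WT (log2 change 1.29, limma adjusted p = 9.81e-07). Mapt, with 1 WT sample at 1 or more, and Nefh, with 3, reached the table's minimum through GOF alone. Nefh, the heavy neurofilament gene, rose by 1.30 (limma adjusted p = 2.84e-06) and Gap43, a growth cone gene, by 0.64 (limma adjusted p = 1.57e-05). Map2, a dendritic microtubule gene, changed by -0.73 (limma adjusted p = 0.00067). The other neurofilament genes did not follow Nefh, since Nefl changed by -0.45 (limma adjusted p = 0.000997) and Nefm did not pass. A share of 58.8% called is close to the background, and both directions occurred.

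Genes of the presynaptic release machinery, where beta-synuclein acts, also went both ways. Of 29 listed 17 were measured, and 7 rose, 6 fell and 4 did not pass (median 0.23). This is 76.5% called and 41.2% higher, against 56.3% and 28.2% of all genes. Some of these directions were partly fixed by the table's minimum. Sv2b, among the 7, is in the table through GOF alone, and Syp, Syt1 and Cplx1, among the 6, through WT alone. Summed, the 17 genes stood at 271 to 290 normalized reads in GOF samples and 238 to 252 in WT samples. Unc13a, which primes synaptic vesicles, had 13.5, 11.6, 10.5 and 8.77 normalized reads in GOF samples 1 to 4 and 4.23, 3.86, 4.80 and 6.13 in WT samples 1 to 4. It rose by 1.07 (limma adjusted p = 9.46e-06) with no overlap. Syt11, a vesicle-trafficking synaptotagmin, rose by 0.54 (limma adjusted p = 3.43e-06). The complexin gene Cplx1, in the table through WT alone, changed by -1.10 (limma adjusted p = 6.15e-06) and the vesicle protein gene Sv2a by -0.45 (limma adjusted p = 2.85e-06). Bsn, a scaffold of the active zone, averaged 8.09 ± 0.339 in GOF hearts and 9.08 ± 1.41 in WT hearts and did not pass.

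Of 21 proneural and neuronal transcription factor genes 5 were measured, and 4 rose and 0 fell, also at an unadjusted p under 0.05 (limma). This is 80.0% higher among only 5 genes, against 28.2% of all genes. The 4 were Hes6 (0.56, limma adjusted p = 4.04e-07), Rest (0.46, limma adjusted p = 3.43e-06), Sox4 (0.37, limma adjusted p = 0.000162) and Sox11 (0.22, limma adjusted p = 0.0142). Rest encodes a repressor of neuronal genes in cells that are not neurons, and it stood at 85.2 ± 5.49 normalized reads in GOF hearts and 61.5 ± 3.16 in WT hearts (SD, n = 4 each). Sox4 and Sox11 are widely expressed in the embryo and are not specific to neurons. The call of Sox11 was lost with columns set to equal totals without mitochondrial genes (0.16, limma adjusted p = 0.078, and 0.00296 to 0.078 over all alternatives). Proneural factors such as Neurog1, Neurog2 and Neurod1 were not analysed here.

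No measured gene of the neural crest, glial and progenitor lists passed as higher with all samples in the fit. Of 17 neural crest and glial genes 6 were measured, with 2 lower and 0 higher in the limma test, also at an unadjusted p under 0.05. This is 33.3% called, and among the measured progenitor genes 40.0% were called. Of all genes 56.3% were called, 28.2% as lower, and both lists are small. Ednrb, the endothelin receptor gene of the crest and of other heart cells, fell to 36.1 ± 3.91 normalized reads in GOF against 65.1 ± 7.06 in WT (log2 change -0.83, limma adjusted p = 7.5e-06). Th, the rate-limiting enzyme gene of catecholamine synthesis, averaged 0.809 ± 0.196 in GOF hearts and 1.32 ± 0.0272 in WT hearts, with 1 GOF sample at 1 or more, so it is in the table through WT alone. Its call as lower (limma adjusted p = 0.0415) was lost under 9 of the 16 alternatives, and the one with a mean of at least 5 did not test it. Among the 9 were 7 of the 8 samples left out in turn (limma adjusted p 0.0517 to 0.0988 in those 7 and 0.00321 to 0.0988 over all). Erbb3, a neuregulin receptor gene, passed as higher without GOF sample 1 at 0.37 (limma adjusted p = 0.0121) and without WT sample 1 at 0.35 (limma adjusted p = 0.038), but not with all samples (0.26, limma adjusted p = 0.125, over all alternatives 0.0121 to 0.313). Of 15 neural progenitor genes 5 were measured, with 2 lower, Msi1 (-0.44, limma adjusted p = 0.000447) and Sox3 (-0.48, limma adjusted p = 0.00391), and 0 higher, also at an unadjusted p under 0.05. Nes averaged 258 in GOF and 248 in WT, with a log2 change of 0.05 ± 0.07 (SE), and passed as higher among these alternatives only without GOF sample 1 (0.13, limma adjusted p = 0.0141, over all alternatives 0.0141 to 0.923).

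Espin is known best from hair cells, and other genes of stereocilia and actin bundles went both ways. Of 26 listed 14 were measured, and 3 rose, 3 fell and 8 did not pass (median -0.04), with 42.9% called against the background of 56.3%. Myo7a, the myosin of stereocilia, had 12, 9.80, 8.51 and 10.3 normalized reads in GOF samples 1 to 4 and 24.5, 23.5, 24.6 and 19.2 in WT samples 1 to 4. It fell by 1.10 (limma adjusted p = 2.73e-07), while Espn was higher in the same samples. The hair cell factors Atoh1 and Pou4f3 were not analysed here. Ezr and Rdx, which link actin to the membrane, moved in opposite directions, by 0.45 (limma adjusted p = 2.71e-05) and -0.31 (limma adjusted p = 1.13e-05). Ush1c rose by 0.49 (limma adjusted p = 0.00722) and the bundling protein gene Pls3 changed by -0.20 (limma adjusted p = 0.00172). Fscn1, another actin bundler, averaged 275 ± 6.98 in GOF hearts and 285 ± 9.80 in WT hearts and did not pass (limma adjusted p = 0.305), but it passed as lower with quantile normalization (-0.12, limma adjusted p = 0.0255) and with equal totals without mitochondrial genes (-0.12, limma adjusted p = 0.0222). Over all alternatives its adjusted p lay between 0.0222 and 0.579 in limma.

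The list with the largest share of higher genes was that of genes induced by activity or calcium in neurons. Like the other lists, it was chosen with earlier results of these data known. Of 26 listed 17 were measured, and 14 rose while 2 fell and 1 did not pass, and the median log2 change was 0.89. This is 82.4% higher, against 28.2% of all genes, and 2 of the 14, Bdnf and Nr4a3, are in the table through GOF alone. The list of proneural and neuronal transcription factors was close behind, at 80.0% of 5 measured genes. With a mean of at least 5 that list led, with 4 of 4 higher against 12 of 14. Fos averaged 25.1 ± 1.42 normalized reads in GOF hearts and 5.63 ± 0.414 in WT hearts (SD, n = 4 each), a rise of 1.98 (limma adjusted p = 2.38e-11). Junb rose by 1.90 (limma adjusted p = 3.85e-10), Egr1 by 1.40 (limma adjusted p = 9.62e-09), Sik1 by 0.84 (limma adjusted p = 1.73e-09) and Dusp6 by 0.69 (limma adjusted p = 1.23e-08). Fos, Junb and Egr1 are immediate early genes, which respond to stimuli in many cell types and not in neurons alone. The postsynaptic scaffold gene Homer1 averaged 94.3 ± 4.22 in GOF hearts and 92.4 ± 3.50 in WT hearts and did not pass (limma adjusted p = 0.628).

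**Figure D4:**
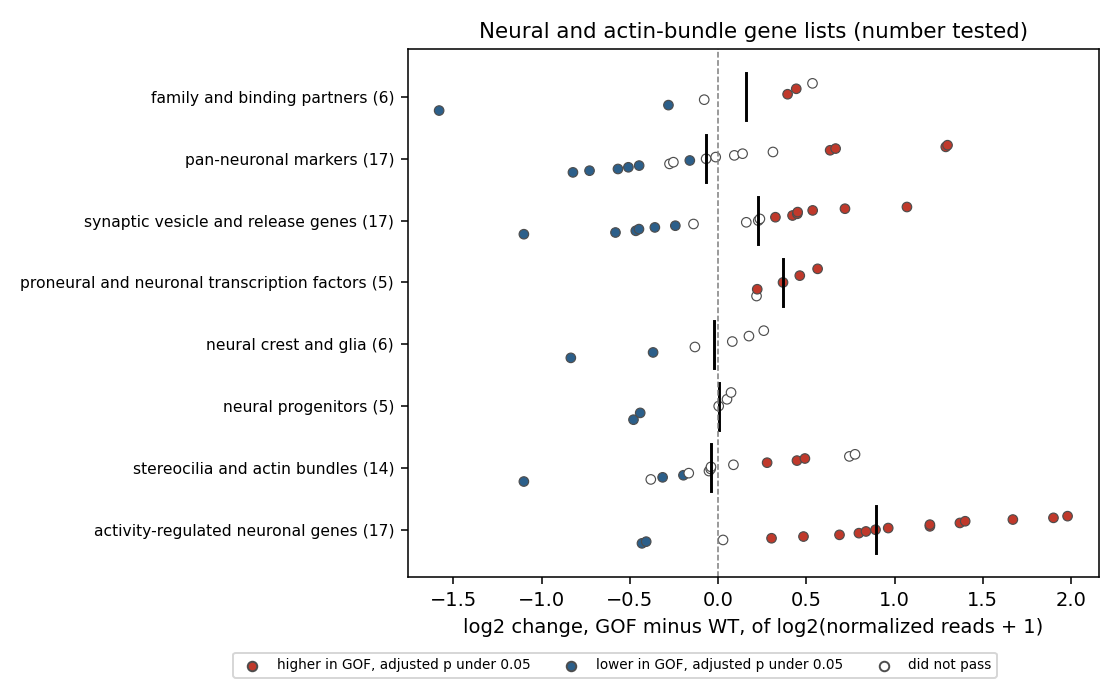
Log2 change, GOF minus WT, of each measured gene in 8 lists, with 1 point per gene (red higher, blue lower, white not past adjusted p under 0.05 in limma) and a line at the list's median. Points fall on both sides of 0 in the neuronal, presynaptic and stereocilia lists, and 14 of 17 activity-regulated genes are red.

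Apart from other members, the 3 genes nearest to each member in profile, with 1 added to each value, are not known mainly from neurons. Likeness was the root mean square difference of log2(normalized reads + 1), each gene relative to its own WT mean, over the 8 samples. It is a description, since both groups enter it, and with them the difference by which the members were chosen. The 3 nearest to Nrn1 were Sncb (0.213), the hypoxia-induced gene Ndrg1 (0.265) and Chac1 (0.286), which degrades glutathione. The 3 nearest to Sncb were Ndrg1 (0.107), the immediate early gene Ier3 (0.17) and Ndufa4l2 (0.205), with Nrn1 next (0.213). The 3 nearest to Espn were Ier3 (0.305), Chac1 (0.324) and the galectin gene Lgals3 (0.329), with Nrn1 next (0.331). Chac1 and Lgals3, like Sncb, were under 1 in all WT samples. The 3 nearest to Kctd16 were Pfkfb3 (0.0942), a glycolysis regulator, the collagen prolyl hydroxylase gene P4ha1 (0.097) and Crebrf (0.0981). Kctd16 lay far from the other members on this scale, at 1.45 to 1.67, where the added 1 limits the change of so low a gene. The nearest genes were not sought with another pseudocount. With 0.1 the log2 change was 4.32 for Kctd16 and 5.87 for Sncb. Over all alternatives those of Pfkfb3, P4ha1, Crebrf and Ndrg1 reached at most 1.84, 1.79, 1.91 and 4.34. Ndrg1 averaged 140 ± 28.0 normalized reads in GOF hearts and 6.76 ± 0.769 in WT hearts, and Pfkfb3 at 155 ± 26.4 in GOF hearts and 45.0 ± 1.98 in WT hearts (SD, n = 4 each).

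The genes next to the members on the chromosome give the setting of each member, whose own change was fixed by its choice. Within 500 kb of the start of a member 34 genes were measured, and 4 were higher and 10 lower, or 41.2% called against 56.3% of all genes. The log2 changes of these neighbours ranged between -0.54 and 0.75 (median -0.04). Beside Sncb, Gprin1 at 16.7 kb had a log2 change of 0.33 (limma adjusted p = 0.0536) and Tspan17 at 22.8 kb one of 0.19 (limma adjusted p = 0.204). Neither passed, although both did without the trended robust prior (limma adjusted p = 0.00272 for Gprin1 and 0.0263 for Tspan17, over all alternatives 0.00272 to 0.165 and 0.0263 to 0.675). Of the 17 genes around Sncb 5 were lower and 0 higher in the limma test. That is 29.4% lower, where 28.2% of all genes were lower and 28.2% higher. Beside Espn, Acot7 at 25.8 kb averaged 15.3 ± 1.14 in GOF hearts and 14.9 ± 1.86 in WT hearts and Plekhg5 at 79.9 kb averaged 14.7 ± 1.27 in GOF hearts and 15.5 ± 2.48 in WT hearts. Neither passed, and of the 15 genes around Espn 3 were higher and 5 lower, or 53.3% called against 56.3% of all genes. The nearest measured gene before Nrn1, the clotting factor gene F13a1 at 315 kb, rose by 0.75 (limma adjusted p = 0.00278) at a low level of 1.76 ± 0.603 in GOF and 0.637 ± 0.280 in WT. It was under 1 in all WT samples and is in the table through GOF alone. Beside Kctd16, Yipf5 at 37.5 kb did not pass (0.07, limma adjusted p = 0.314). On its other side the nearest measured gene was Prelid2, 1690 kb away, which rose to 40.9 ± 1.56 against 15.7 ± 0.793 in WT (log2 change 1.33, limma adjusted p = 8.63e-11).

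**Figure D5:**
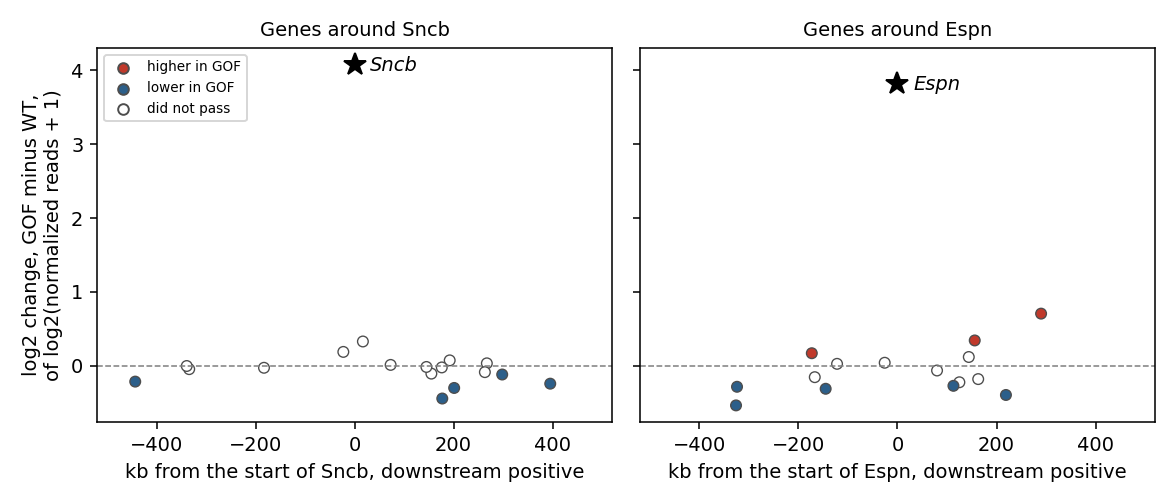
Log2 change, GOF minus WT, of measured genes within 500 kb of the starts of Sncb (17 genes) and Espn (15 genes), by distance in kb along the direction of the gene. The members, drawn as stars, lie at 4.07 and 3.81, and the neighbours lie between -0.54 and 0.71.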

How the data were processed

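The deposited table holds a normalized signal for 13637 genes in 8 samples. Per the submitters' processing notes, CASAVA 1.8.2, cutadapt 1.6, FastQC, RSEM 1.2.3 and the GRCm38 build were used, with no role or order given. The normalization is not given in the sources used here. From the values, each equals a whole number of reads plus 0.5 over 1 scale per library (100% within 0.01), and reads were recovered from that. No count model was run, since the values carry that offset and scale. GENCODE M21 gave symbols for 13554 of the 13637 IDs.

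The test was limma 3.58.1 (R 4.3.3) on log2 of the value plus a pseudocount of 1 (trended, robust eBayes, no covariate, two-sided, Benjamini-Hochberg over all genes, threshold 0.05). The filter of 1 in at least 4 samples removed 0 genes, so the alternative with no filter equals the main fit. Alternatives were pseudocounts of 0.1 and 3, no filter, a mean of at least 5, quantile normalization, equal totals without mitochondrial genes, eBayes without trend or robust prior, the replicate number as a block, and each sample left out. The steps were tested on simulated data. The members and the 8 lists were chosen with earlier results of these data known. The text names the members, their relatives and partners, per list up to 5 called genes with the smallest p and 2 abundant ones not called, the nearest genes, and the 3 most alike. Nefl, Nefm, Dcx, Syt1, Syp, Sv2b, Bdnf, Nr4a3, Gm10052 and the genes of the closing observations were named after their values were seen. Some genes that the rule takes are counted but not reported here by name. Intervals reflect counting error alone. All pairs of same-group samples differed beyond sampling noise (chi-square per degree of freedom 3.48 to 19.0).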

Additional observations from a re-analysis of the deposited data

Results flagged for a closer look

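In 132 groups of 4 samples checked for the genes named, 4 held a sample far from the other 3, where chance gives about 1 in 20. Ier3, near Sncb and Espn in profile, was at 125 normalized reads in GOF sample 3, against 91.2 to 95.8 in the other GOF samples. Plekhg5, next to Espn, was at 12.8 in GOF sample 4, against 15.2 to 15.4. Chac1 was at 0.68 in WT sample 1, against 0.525 to 0.551 in the other WT samples, and Crebrf at 9.57 in WT sample 2, against 10.9 to 11.1. None of the 4 members had such a sample in either group.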

How the results depend on the processing

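The levels of the 4 members depend on the pseudocount. With 0.1 the log2 changes were 4.59 for Nrn1, 5.87 for Sncb, 4.43 for Espn and 4.32 for Kctd16, and with 3 they were 3.49, 2.83, 3.06 and 0.886. Leaving out 1 sample gave 4.05 to 4.24 for Nrn1, 3.98 to 4.14 for Sncb, 3.65 to 3.93 for Espn and 1.74 to 1.90 for Kctd16. Same-numbered samples did not deviate together (correlations -0.137 to 0.00674). The labels do not say how samples were numbered, so whether the numbers pair them is not known. With the replicate number as a block 7355 genes were called, the relatives and partners had 1 gene lower and neural crest and glia 1. With a mean of at least 5 fewer genes were tested, and pan-neuronal genes had 1 higher and 2 lower, presynaptic genes 3 lower, and neural crest, progenitor and activity-regulated genes 1 lower each. Stereocilia genes had 5 lower with quantile normalization or equal totals, relatives 1 lower without the trended prior, and neural crest 1 lower with pseudocount 3. Leaving out 1 sample gave 1 to 2 lower relatives, 0 to 1 higher and 1 to 2 lower neural crest genes, and 0 to 1 higher progenitor genes. It also gave 3540 to 3877 higher and 3439 to 3790 lower genes in all. The other causes were not tested. Of the 62 other genes that the naming rule takes 52 kept call and direction under every one of the 16 alternatives that tested them, and none reversed. Genes with a mean under 5 were not tested in the alternative with that minimum, so their ranges over all alternatives leave it out. Depth limits Sncb and Kctd16 in WT, at 13 and 0 reads.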

Other observations

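A few single genes known from neurons also had large rises. They were picked for those values, so they describe no group, and the lists of neuronal genes went both ways. Eno2, the neuronal enolase gene that is also induced in hypoxia, averaged 89.9 ± 24.1 normalized reads in GOF hearts and 7.82 ± 2.58 in WT hearts (SD, n = 4 each). Dpp6, an auxiliary subunit of potassium channels, averaged 39.8 ± 3.18 in GOF hearts and 3.45 ± 1.06 in WT hearts, and the kainate receptor gene Grik3 averaged 22.8 ± 3.27 in GOF hearts and 3.16 ± 0.339 in WT hearts. Gad1, which makes GABA, the ligand of the receptor that Kctd16 assists, averaged 8.32 ± 0.809 in GOF hearts and 0.578 ± 0.291 in WT hearts. Nxph4, a neurexophilin gene, had 302 reads in GOF and 3 reads in WT. The log2 changes of these 5 genes were 2.50 to 3.37. Gad1 and Nxph4 were under 1 in all WT samples and are in the table through GOF alone.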
